A study of Homo sapiens with 3 samples.

Results

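The enzymes that supply deoxynucleotides for DNA synthesis were examined after knockdown of the arginine methyltransferase PRMT1 in the human colorectal carcinoma line HCT116. They comprised 9 genes, RRM1, RRM2, DUT, TYMS, DTYMK, TK1, CAD, DCK and SAMHD1, which were read by every non-control probe carrying one of these names. That gave 11 of the 58201 non-control probes on the array and 9 of the 41749 gene names. The 9 genes were chosen with measured values in view, because RRM2 was higher while other proliferation genes were lower, so their changes are given as a description without a test. Total RNA from HCT116-PRMT1-NC cells (NC), HCT116-PRMT1-KD1 cells (KD1) and HCT116-PRMT1-KD2 cells (KD2) was hybridised to 1 Agilent 1-colour array each. Per the labels, all were cultured alike in McCoy's 5A medium with serum, and transfection by lipofection used small interfering RNA (siRNA) against PRMT1. Per the study, the NC cells carried a scrambled control. How long after transfection RNA was taken, and which of the 2 listed oligonucleotides is KD1 and which KD2, are not given in the sources used here. The 3 arrays share 1 slide and 1 scan.

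Deoxynucleotides reach a dividing cell by 2 routes, de novo synthesis and salvage. In the de novo route, ribonucleotide reductase, built from the large catalytic subunit RRM1 and the small radical-bearing subunit RRM2, removes the 2′ hydroxyl from ribonucleoside diphosphates. RRM2 protein accumulates in S phase and is degraded after it, whereas RRM1 is long-lived. In the salvage route, kinases such as TK1 and DCK phosphorylate deoxynucleosides taken up from outside. DUT and TYMS lie on the path to thymidylate, and SAMHD1 degrades deoxynucleoside triphosphates, so the set holds both suppliers of the pool and an enzyme that empties it.

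The oligonucleotides that the labels list against PRMT1 are shown first, as the agents of the knockdown. The study's methods list the same siRNAs as the labels, whereas its results text speaks of hairpin RNAs. Which of these the arrays rest on is not settled.
PRMT1 siRNA-1: cugaaguccaggucgauggugaaguc
PRMT1 siRNA-2: uuguagucuuuguacugcc
They hold 26 and 19 bases, with a GC content of 53.8% and 42.1%.

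The stretches before the start sites of RRM2 and of the 2 members that were lower by 1.5-fold or more in both knockdowns, DUT and SAMHD1, are shown because these genes lay on opposite sides of NC. All are RefSeq sequences of build GRCh38.p14, 250 bases long, written along the strand of the gene and ending at the base before the start site. For genes with several start sites the one farthest along the strand was taken (RRM2 has 2 such windows, DUT 4 and SAMHD1 1). Capitals mark CCAAT boxes, the letters read by the trimeric factor NF-Y, and E2F motifs, read by the factors that switch on S-phase genes.
RRM2, chr2:10122489-10122738, plus strand: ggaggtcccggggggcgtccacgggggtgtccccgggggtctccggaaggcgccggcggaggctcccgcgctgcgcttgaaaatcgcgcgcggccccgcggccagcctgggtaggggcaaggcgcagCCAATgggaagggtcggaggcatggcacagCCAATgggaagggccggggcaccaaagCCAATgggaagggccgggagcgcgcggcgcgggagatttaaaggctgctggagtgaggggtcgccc
DUT, chr15:48331947-48332196, plus strand: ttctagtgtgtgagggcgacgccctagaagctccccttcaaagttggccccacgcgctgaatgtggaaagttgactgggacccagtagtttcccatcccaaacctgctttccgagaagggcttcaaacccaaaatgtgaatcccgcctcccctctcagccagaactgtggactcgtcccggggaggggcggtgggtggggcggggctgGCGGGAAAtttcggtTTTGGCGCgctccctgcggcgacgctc
SAMHD1, chr20:36951709-36951958, minus strand: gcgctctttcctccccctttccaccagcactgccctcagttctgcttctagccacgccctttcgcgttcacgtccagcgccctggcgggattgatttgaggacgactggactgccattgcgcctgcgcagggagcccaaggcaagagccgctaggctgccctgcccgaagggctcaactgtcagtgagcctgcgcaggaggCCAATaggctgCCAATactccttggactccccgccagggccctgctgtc
The RRM2 stretch held 3 CCAAT boxes, which end 118, 88 and 61 bases before the start site, and no match to the E2F forms searched. The DUT stretch held 2 E2F matches and no CCAAT box. The SAMHD1 stretch held 2 CCAAT boxes, ending 44 and 33 bases before the start site. Motifs were searched on both strands for CCAAT and for the Sp1 motif GGGCGG. The search also covered TATAAA and the E2F forms TTTCCCGC, TTTGGCGC, TTTCGCGC and TTTGCCGC, and no 2 matches overlapped in the members' windows. CCAAT occurred in the window of 6 of the 9 members against 32.0% of 35116 RefSeq windows of this length. GGGCGG occurred in 6 of 9 members against 42.6% of windows, TATAAA in 0 of 9 against 10.7%, and the E2F forms in 2 of 9, DUT and TYMS, against 2.79%. These counts depend on the start site taken. With the other RefSeq start site of RRM2, the window held 1 CCAAT box and 1 GGGCGG motif. The 3 other windows of DUT held 0 E2F matches, and the other window of TK1 held 1 TATAAA and 0 CCAAT. A match describes the letters only.

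The scale of the values was as follows. Normalized signal is the log2 of the processed intensity minus the 75th percentile of that array, so it compares 1 probe between arrays and not different probes with each other. A probe was detected where the extraction software marked it well above background, which held for 40.8% of probes on NC, 41.7% on KD1 and 42.5% on KD2, with 0 saturated spots. The threshold for a change was a fold of 1.5, taken from the study's methods. The error printed with a change is the SD of the software's error model for the arrays compared. It covers measurement error of a spot only. Without replicate arrays, differences between groups have no replicate check. Between KD1 and KD2, the robust SD of the difference over 17054 genes detected on all arrays was 0.38. PRMT1 itself lay at a normalized log2 signal of 6.01 (NC), 2.75 (KD1) and 1.45 (KD2). The knockdown arrays thus held 10.4% and 4.24% of the NC signal. Epithelial markers were detected for 5 of 7 genes on each array (KRT20 and VIL1 were not), and leukocyte and stromal markers for 1, 1 and 2 of 6 on NC, KD1 and KD2. In such bulk RNA, fewer cells in S phase and less RNA per cell cannot be told apart.

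In ribonucleotide reductase, the small subunit was higher in both knockdowns and the large subunit was not. RRM2, the small subunit, was read by 1 probe (A_24_P225616, transcript NM_001034, hg19 chr2:10270487-10270546, plus strand, GC content 35.0%). The first 30 of its 60 bases are given here because every RRM2 value rests on this probe.
RRM2 probe: ggttcctacaagttgttcattctagttttg
The processed intensity of RRM2 was 117.2 in the control, 328.6 in KD1 cells and 251.8 in KD2 cells, with a normalized log2 signal of 0.0063, 1.1 and 1.01. Both knockdown arrays thus lay above the control array. The change was 1.1 ± 0.21 (error-model SD) in KD1, or 2.14-fold, and 1.00 ± 0.21 in KD2, or 2.0-fold. KD1 and KD2 differed by 0.0979 ± 0.21 for this gene, less than the measurement error. Ordered from the most raised, RRM2 held place 650 among 19231 genes for KD1 and place 558 among 19421 for KD2. The spot was of low intensity, and its change depended on the background correction. With normexp background correction the change was 0.713 in KD1 and 0.704 in KD2. With the median of genes of like GC content and signal subtracted it was 0.786 and 0.902.

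RRM1, the large subunit, did not share this change. Its probe (A_23_P87351, NM_001033, hg19 chr11:4159947-4160006, plus strand) gave an intensity of 4023 for NC, 4909 for KD1 and 3940 for KD2. The normalized log2 signal was 5.11, 5.00 and 4.97, and the changes of -0.103 ± 0.20 in KD1 and -0.134 ± 0.20 in KD2 lay within the error of the spot. The change of RRM2 minus that of RRM1 was 1.2 in KD1 and 1.13 in KD2, a quantity in which the scaling of the arrays cancels. Most of the 14 other ways of processing only rescale or filter, so they cannot move this quantity and are no check on it. It could move with normexp background correction (0.701 in KD1 and 0.80 in KD2) and with quantile normalization (1.14 and 1.06). Subtraction of the median of like signal gave 1.16 and 1.05, and that of like GC content and signal 0.975 and 1.0. RRM2B, the alternative small subunit induced by p53, was not a member and had 2 detected probes. The brighter (A_33_P3323384) was 0.24 ± 0.21 above NC in KD1 and 0.37 ± 0.21 in KD2, and the other (A_23_P20225) 1.16 ± 0.23 and 0.48 ± 0.23, so in KD1 they differed by more than their errors.

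**Figure D1:**
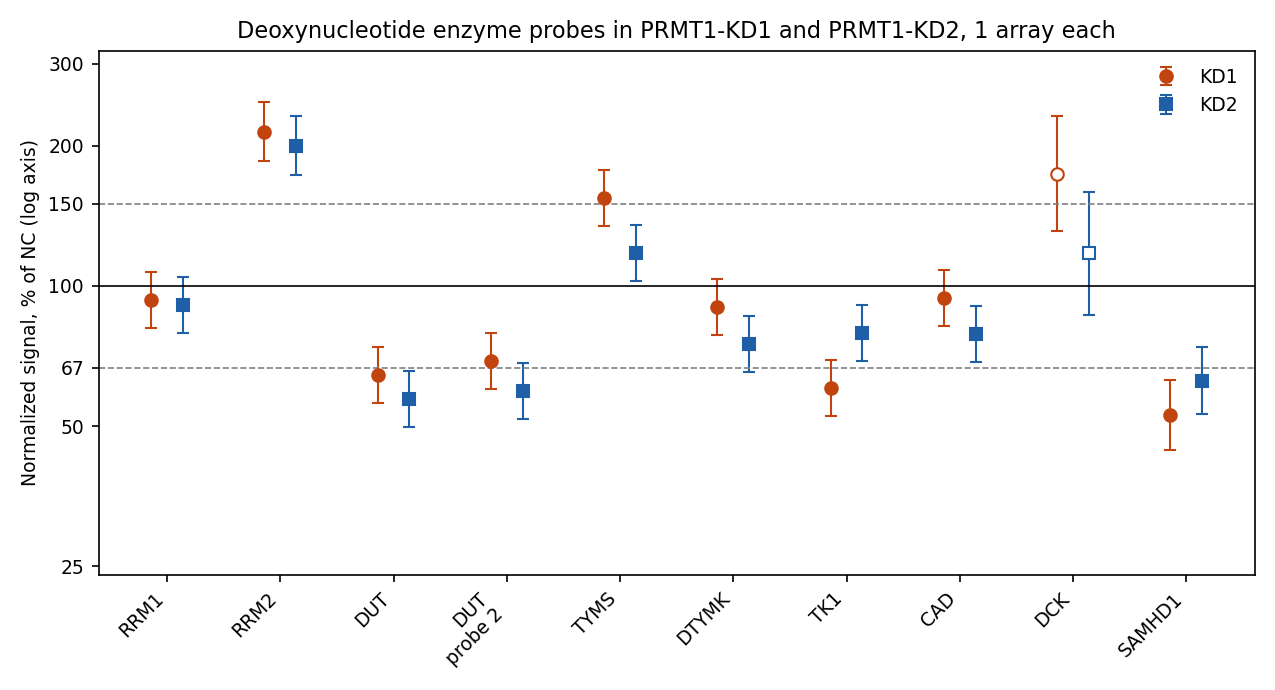
Normalized signal of each measured probe of the 9 deoxynucleotide enzymes as a percent of NC (vertical log axis) in KD1 (circles) and KD2 (squares), 1 array each, with bars for the error-model SD and dashed lines at a fold of 1.5. RRM2 lies at 214% and 200% of NC, and DUT and SAMHD1 lie below the lower dashed line in both knockdowns with the brighter probe. The open symbols of DCK are measured from the detection floor because its NC spot was not well above background.

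On the path to thymidylate, DUT was lower in both knockdowns and TYMS was higher in KD1. DUT, the dUTPase that converts dUTP to dUMP and so keeps uracil out of DNA, was read by 2 probes whose 60 bases extend over about the same stretch of the genome and cross a splice junction. They are shown whole because they overlap and are not independent. Capitals mark the one position at which the overlapping letters differ.
DUT probe A_23_P88484: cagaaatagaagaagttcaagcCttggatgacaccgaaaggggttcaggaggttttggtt
DUT probe A_24_P160874: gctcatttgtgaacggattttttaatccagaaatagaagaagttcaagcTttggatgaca
They share 33 positions, of which 32 match, and the difference is C23T, counted from 1 at the 5′ end of the first probe. The first lies at hg19 chr15:48633763-48634258 and the second at chr15:48633737-48634231, both on the plus strand and both assigned to NM_001025248. The brighter, A_23_P88484, had an intensity of 14470 on NC, 12210 on KD1 and 8900 on KD2. On the normalized log2 scale it lay at 6.95 in the control, 6.32 with KD1 and 6.15 with KD2, so both knockdown arrays lay below the control. The change was -0.635 ± 0.20 in KD1, to 64.4% of NC, and -0.804 ± 0.20 in KD2, to 57.3%. The second probe changed by -0.535 ± 0.20, to 69.0% of NC, which is short of 1.5-fold, and by -0.747 ± 0.20, to 59.6%. In KD1 the change of DUT was close to the threshold fold, and it was past it in 9 of 14 other ways of processing, whereas in KD2 it was past it in 13 of 14.

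TYMS, thymidylate synthase, methylates dUMP to dTMP and is the target of fluoropyrimidines used against colorectal cancer. Its probe (A_23_P50096, NM_001071, hg19 chr18:673276-673335, plus strand) had an intensity of 7242 on NC, 14660 on KD1 and 9149 on KD2. The normalized log2 signal was 5.96, 6.58 and 6.19, and both knockdown arrays lay above NC. The change was 0.628 ± 0.20 in KD1, to 155% of NC, and 0.234 ± 0.20 in KD2, to 118%, and only the first was past 1.5-fold. Over the 14 alternatives the KD1 change was between 0.541 and 1.24, past the fold in 12 of them. The difference of 0.394 between the knockdowns was close to the robust SD of 0.38 over all genes. DTYMK, the kinase that turns dTMP into dTDP, was read by A_23_P123974 (NM_012145, hg19 chr2:242615190-242615249, minus strand). Its intensity was 20650 for NC, 24390 for KD1 and 16670 for KD2, and its normalized log2 signal was 7.47, 7.32 and 7.05. The change of -0.149 ± 0.20 in KD1 was within the error of the spot, and that of -0.412 ± 0.20 in KD2, to 75.1% of NC, did not reach the fold.

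CAD carries out the opening steps of pyrimidine ring synthesis, upstream of all pyrimidine nucleotides. Its probe (A_23_P40049, NM_004341, hg19 chr2:27465770-27465829, plus strand) had an intensity of 3355 on NC, 4147 on KD1 and 2838 on KD2. The normalized log2 signal was 4.85, 4.76 and 4.50, with changes of -0.084 ± 0.20 in KD1 and -0.345 ± 0.20 in KD2. Neither reached 1.5-fold. The sign of the KD1 change of RRM1, DTYMK and CAD depended on the scaling: it was positive for all 3 with scaling to spike-in probes (0.512, 0.466 and 0.531) and with the unscaled series matrix.

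The salvage kinases differed from each other. TK1, the cytosolic thymidine kinase whose protein is present in S phase, had a probe (A_23_P107421, NM_003258, hg19 chr17:76170193-76170252, minus strand) with an intensity of 122600 on NC, 96800 on KD1 and 104500 on KD2. The normalized log2 signal was 10.0, 9.31 and 9.70. TK1 was thus at 60.3% of NC in KD1, a change of -0.731 ± 0.20, and at 79.3% in KD2, a change of -0.334 ± 0.20, which is within 1.5-fold. The KD1 change ranged from -0.803 to -0.116 over the 14 alternatives and was past the fold in 9. DCK, deoxycytidine kinase, which also activates nucleoside drugs such as gemcitabine, was near the detection limit. Its probe (A_24_P89080, NM_000788, hg19 chr4:71895933-71895992, plus strand, GC content 25%) had an intensity of 16.64 on NC, where it was not well above background, 40.57 on KD1 and 22.43 on KD2. The normalized log2 signal was -2.81, -1.91 and -2.48. Measured from the lowest signal of any detected probe on NC (-2.71), DCK was 1.74-fold higher in KD1 and 1.17-fold higher in KD2. The error-model SDs were 0.41 and 0.44 on the log2 scale, so the KD2 change of 0.232 was within its error. These folds are not firm minima. With normexp background correction the DCK change was 0.103 in KD1 and 0.107 in KD2.

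SAMHD1, the triphosphohydrolase that breaks deoxynucleoside triphosphates down to deoxynucleosides, was lower in both knockdowns. Its detected probe (A_33_P3406281, NM_015474, hg19 chr20:35520759-35520818, minus strand) had an intensity of 78.01 on NC, 53.92 on KD1 and 52.44 on KD2. Normalized, the log2 values were -0.581, -1.50 and -1.26 in the same order. The change was -0.923 ± 0.25 in KD1, to 52.8% of NC, and -0.677 ± 0.24 in KD2, to 62.6%. These are dim spots, and with normexp background correction the changes were -0.403 in KD1 and -0.301 in KD2, both within 1.5-fold. Over the 14 alternatives SAMHD1 was past the fold in 11 in each knockdown and below NC in all of them. A second SAMHD1 probe (A_24_P267592, chr20:35533804-35533863) was not well above background on any array and gives no fold.

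Counted together, 3 of the 9 members were lower past 1.5-fold in KD1 (DUT, TK1 and SAMHD1), where 12.8% of the 19231 genes measured were. Another 3 were higher (RRM2, TYMS and DCK), where 13.2% of genes were. DCK was counted only because KD1 detected it, as its NC spot was not well above background. With detection required on all arrays compared, 2 were higher. In KD2, 2 members were lower (DUT and SAMHD1) against 10.7% of 19421 genes, and 1 was higher (RRM2) against 9.56%. KD1 and KD2 share the NC array, and of the 18602 genes measured in both, 5.36% were lower past the fold in both and 5.00% higher in both. Between KD1 and KD2, 0 of 9 members differed by 1.5-fold, where 18.7% of 19544 genes did. Since the members were selected on these changes, nothing is read from the counts. The median member change was -0.103 in KD1 and -0.334 in KD2, and without RRM2 it was -0.126 and -0.34, where the median of all genes was -0.0433 and -0.05. In each knockdown 6 of 9 members were below NC, where 10308 of 19231 genes were in KD1 and 10632 of 19421 in KD2. The shares of genes past 1.5-fold depend on the scaling of the arrays. With spike-in scaling 1.93% of genes were lower and 48.9% higher in KD1, and 3.64% and 22.4% in KD2, and the median of all genes was 0.572 and 0.242. With the unscaled series matrix the shares were 3.6% and 32.4% in KD1 and 7.44% and 13.4% in KD2, with medians of 0.345 and 0.0525. With median scaling they were 9.28% and 17.0% in KD1 and 18.1% and 6.05% in KD2, with medians of 0.0584 and -0.199, and with a percentile over detected probes 16.4% and 11.0% in KD1, with a median of -0.116. Against these medians RRM2 was still higher, with a change of 1.71 in KD1 and 1.29 in KD2 under spike-in scaling. It was past 1.5-fold in all 14 alternatives in both knockdowns, with the lowest values under normexp background correction (0.713 in KD1 and 0.704 in KD2). Some of these cannot move it. With 1 probe detected on all arrays, probe averaging and the detection filters return the reported value. RRM2 was also chosen for this rise, so the count of alternatives is no independent check.

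**Figure D2:**
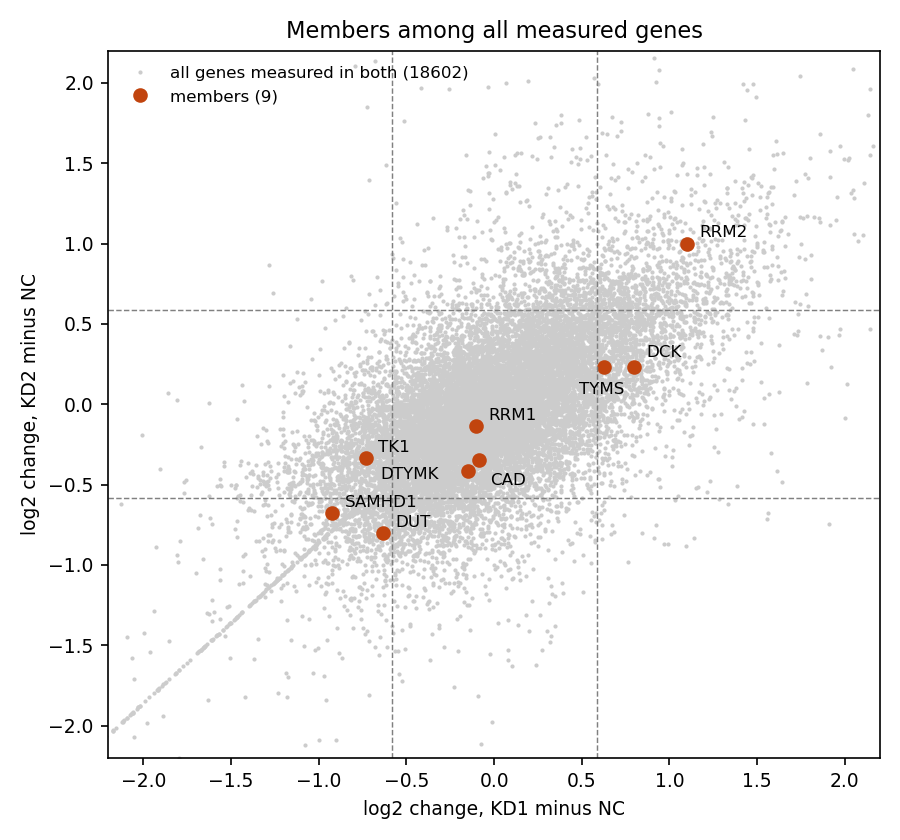
Log2 change from NC in KD1 (horizontal axis) against KD2 (vertical axis) for 18602 genes measured in both (grey points; some lie beyond the axes) and for the 9 members (filled circles), with dashed lines at a fold of 1.5. Both axes share the NC array, and the thin diagonal at the lower left holds genes set to the detection floor in both knockdowns. RRM2 is the one member past the line in both directions upward (1.1 and 1.00), and DUT and SAMHD1 are past it downward.

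The genes whose pair of changes lay nearest to that of RRM2 were listed, among 13543 genes with a symbol that were detected on all 3 arrays. By Euclidean distance of the log2 changes these were SETD1B, a histone H3 lysine 4 methyltransferase (1.1 in KD1 and 0.98 in KD2, distance 0.0191), ECE1, the endothelin-converting enzyme (1.1 and 1.03, distance 0.0271), CCDC186 (1.07 and 0.989, distance 0.0333), ANXA7, an annexin (1.08 and 1.03, distance 0.0337), and LPP, a focal adhesion protein (1.07 and 1.02, distance 0.0358). The likeness rests on 2 changes that share 1 control array. None of the 5 is a member or belongs to the pathway lists. Such genes are few among the 13543, so overlap was unlikely in advance and nothing is read from its absence.

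The other genes of nucleotide metabolism, 61 in all with 60 measured, were taken as lists. Of the 60, 6 were lower and 7 higher past 1.5-fold in KD1, with a median change of -0.0788, and 9 were lower and 6 higher in KD2, with a median of -0.179. Of all genes, 12.8% were lower and 13.2% higher in KD1, and 10.7% and 9.56% in KD2. The same shares stand beside the count of each list below, and no count was tested against them. Among 14 nucleoside and nucleotide kinases, which carry nucleotides to the triphosphate, 2 were lower and 0 higher in KD1 (median -0.139) and 3 lower and 1 higher in KD2 (median -0.219). NME4, a mitochondrial nucleoside diphosphate kinase, lay at -0.863 for KD1 and -0.749 for KD2. Among 12 measured enzymes of deamination, breakdown and cleaning of the pool (DPYD was not detected), 2 were lower and 2 higher in KD1 (median -0.193), and 1 lower and 2 higher in KD2 (median -0.0924).

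Some of the latter act next to the members. DCTD, the deaminase that makes dUMP from dCMP and thereby the substrate of TYMS, changed by 1.07 in KD1 and 0.639 in KD2. With normexp background correction its KD2 change was 0.471, within 1.5-fold. NUDT1, which removes oxidized purine triphosphates from the pool, changed the other way, by -0.691 and -0.623, and was past the fold in 11 and 7 of the 14 alternatives. In the folate cycle, which supplies the methyl group for TYMS, 1 of 10 genes was lower and 3 higher in KD1 (median -0.00848), and 0 lower and 2 higher in KD2 (median -0.252). MTHFD2, the mitochondrial enzyme that forms one-carbon units, was among the higher genes in both (1.04 and 0.605).

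The remaining lists held no gene past the fold in both knockdowns. Of 4 genes of UMP and CTP synthesis, 0 were past 1.5-fold in either knockdown (medians 0.134 in KD1 and -0.107 in KD2). Of 15 genes of purine synthesis and salvage, 0 were lower and 2 higher in KD1 (median 0.0837), and 5 lower and 1 higher in KD2 (median -0.166). Of 4 nucleoside and nucleotide carriers, 1 was lower in KD1 (median -0.424) and 0 in KD2 (median -0.0113).

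Genes that regulate ribonucleotide reductase and S-phase transcription were described beside RRM2. Of 16 such genes, among them cyclin F, the E2F factors, the NF-Y subunits and the ATR to WEE1 kinases, 2 were lower and 2 higher in KD1 (median 0.0726), and 1 lower and 2 higher in KD2 (median -0.0596). WEE1, the kinase that restrains CDK1 and CDK2, changed by 0.699 and 0.912. E2F3 changed by 0.766 and 0.657 with its brighter probe, whereas its other detected probe gave -0.335 and -0.13. NFYA, NFYB and NFYC, the subunits that bind CCAAT, changed by 0.133, 0.185 and 0.168 in KD1 and by 0.209, -0.0542 and 0.0536 in KD2 with their brightest probes, none past 1.5-fold. Some of the other detected probes differed in sign in KD1, with -0.329 and -0.0136 for NFYA (A_33_P3239634) and -0.387 and -0.759 for NFYC (A_33_P3363674), the last being past 1.5-fold lower in KD2. CCNF, which targets RRM2 protein for degradation, changed by -0.194 and -0.518, the former being 0.421 with spike-in scaling. The last 4 were named for their bearing on RRM2 after their values were seen.

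Replication and mitosis genes were part of the pattern that chose the members, so their values are set beside RRM2 as a description, without a test of the difference. Among 38 DNA replication genes, 5 were lower and 1 higher past 1.5-fold in each knockdown, with medians of -0.189 in KD1 and -0.191 in KD2. For comparison, 12.8% of all genes were lower in KD1 and 10.7% in KD2, so the count of lower replication genes was close to the background. The 1 higher gene stood against 13.2% of all genes in KD1 and 9.56% in KD2. Below NC lay 29 of 38 in KD1 and 27 of 38 in KD2, where 10308 of 19231 and 10632 of 19421 genes did. MCM5, a subunit of the replicative helicase, changed by -1.31 and -1.12, and CDT1, which loads that helicase, by -1.06 and -0.612. DBF4, the activator of the CDC7 kinase, changed by -0.775 and -0.819, while TIPIN, a fork protection protein, changed by 0.602 and 0.67. Among 21 mitosis genes, 6 were lower and 0 higher in KD1 (median -0.268), and 8 lower and 0 higher in KD2 (median -0.418). MKI67, the proliferation marker, changed by -0.95 and -0.709, PLK1, a mitotic kinase, by -0.795 and -0.791, and KIF20A, a kinesin of cytokinesis, by -0.587 and -0.842. CCNB1, the mitotic cyclin, changed by -0.675 and -1.0 with its brighter probe and by 0.128 and -0.50 with the other. The KD1 medians of both lists turned positive with spike-in scaling (0.426 for replication and 0.347 for mitosis), as did the KD2 median of the replication list (0.101), whereas that of the mitosis list was -0.126 there. Of the 8 genes named, 7 kept their sign in both knockdowns under all 14 alternatives, the exception being KIF20A with 0.0284 in KD1 under spike-in scaling. The part of these genes in the member values was not tested.

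**Figure D3:**
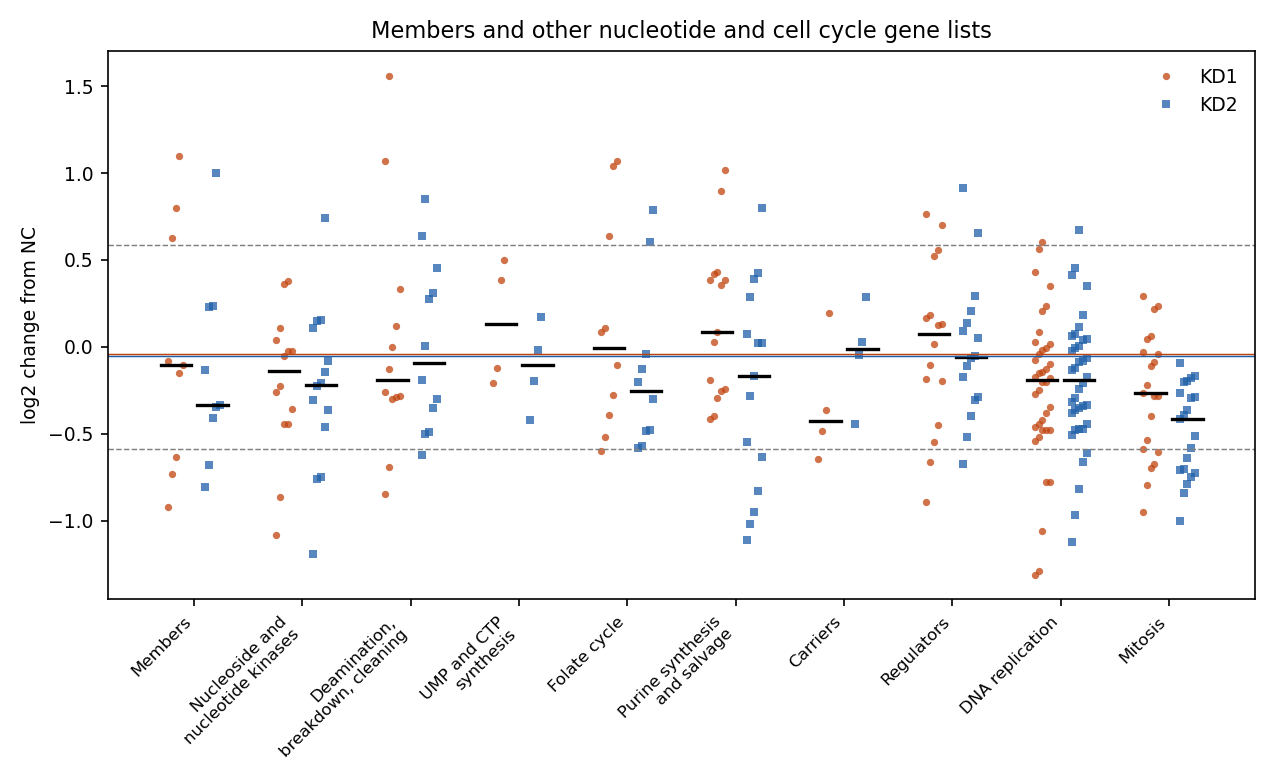
Log2 change from NC (vertical axis) for each measured gene of the members and of 9 lists in KD1 (circles) and KD2 (squares), with a black bar at the median of each list, coloured lines at the medians of all genes and dashed lines at a fold of 1.5. RRM2 is the highest member point in each knockdown at 1.1 and 1.00. All 21 mitosis genes lie below 0 in KD2, where 10632 of 19421 genes do (14 of the 21 with spike-in scaling).

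Some members have copies elsewhere in the genome. RefSeq names 3 pseudogenes of RRM2, 8 of DUT and 2 of TYMS, none of which has a probe under that name on the array, and whether the probes read their transcripts was not tested. The files place the probes in hg19, and no annotation of that build was used, so the exon or UTR of a probe is not stated.

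**Figure D4:**
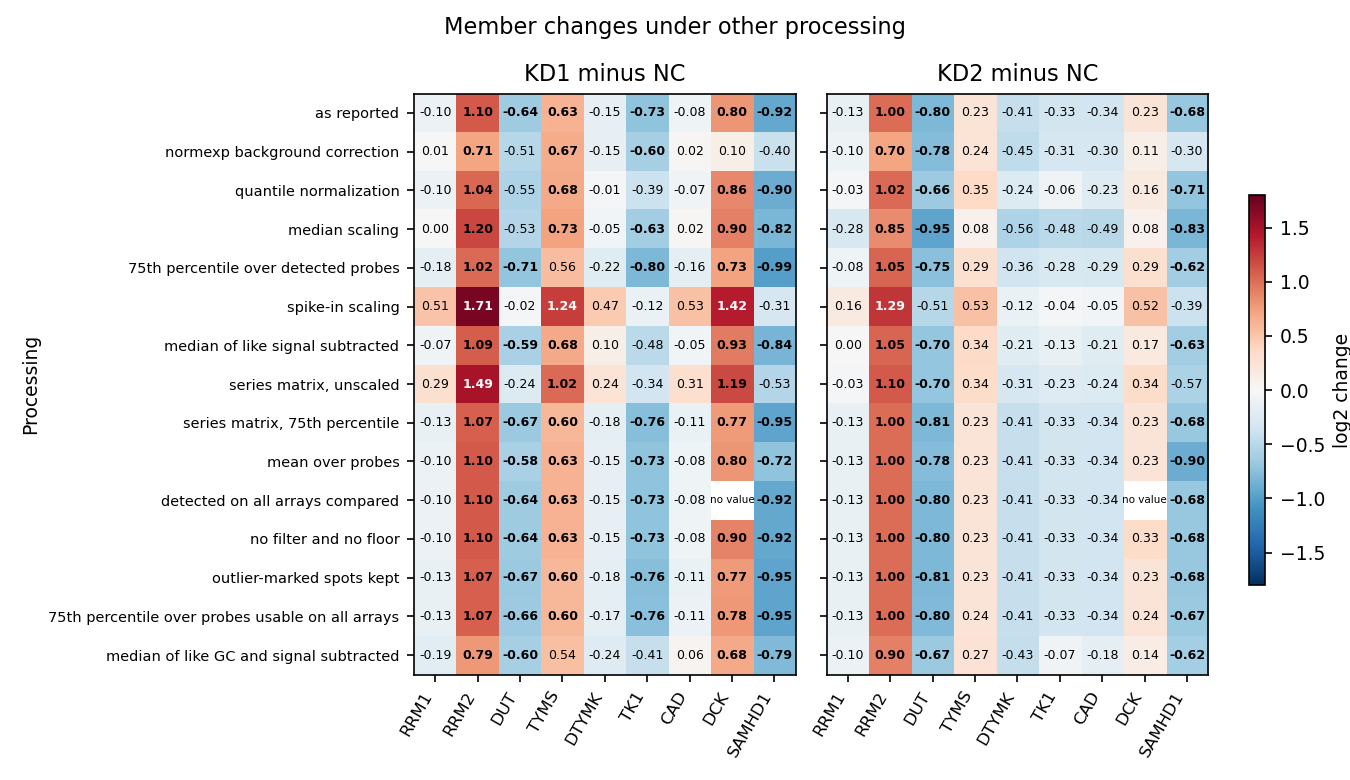
Log2 change of the 9 members (columns) in KD1 and KD2 as reported and under 14 other ways of processing (lines of the grid), with colour from blue for lower to red for higher and bold print past 1.5-fold. RRM2 is bold in every line in both knockdowns, with its lowest values under normexp background correction (0.713 and 0.704), while TK1, DUT and SAMHD1 are pale under spike-in scaling in KD1. Lines that only average probes or filter by detection cannot move RRM2.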

How the data were processed

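The members and the gene lists were chosen with earlier results of these data known. Per the file headers, the deposited intensity (gProcessedSignal) of each 1-colour array was extracted and background-corrected by the authors with Agilent Feature Extraction 10.7.1.1 and was not scaled between arrays. The authors' series matrix gives that intensity probe by probe (99.9% of values within 1% of the scanner value), unscaled, with column medians of 7.91 on NC, 9.74 on KD1 and 9.43 on KD2. Control spots and spots marked as non-uniform or population outliers were left out, which dropped 130 probes. The non-uniform spots numbered 6 on NC, 141 on KD1 and 5 on KD2. With marked spots kept, the RRM2 change was 1.07 in KD1 and 0.999 in KD2. Repeated spots were averaged on the log2 scale and the 75th percentile of each array was subtracted. The brightest probe stood for a gene. A gene counted as measured if either array of a comparison detected it. Undetected values below the lowest detected signal of their array were raised to it. The error model of the extraction software holds a multiplicative term of 10%, and probes spotted repeatedly (300) had a median SD of 0.046, 0.0527 and 0.0408 on NC, KD1 and KD2. The threshold was the 1.5-fold of the study's methods. Their p-value needs replicate arrays, so no test was made.

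Genes were named by rule: PRMT1, all members, RRM2B, the 5 genes nearest to RRM2, and of each list at most 4 genes past the fold in both knockdowns with 1 sign. Some genes that this rule names are not reported here. Of 41749 gene names, 21043 matched a RefSeq symbol and 1622 a synonym, and 1505 probes had no gene name. Alternatives were normexp background correction (offset 50, limma 3.58.1 in R 4.3.3), other scalings and filters, the series matrix, and a fold of 2. Subtraction of the median over probes of like GC content and signal, and a 75th percentile over probes usable on all arrays, were chosen after seeing the data, as was the change of RRM2 minus that of RRM1. The calculation was tested on simulated data. Computation used Python 3.11.15 with pandas 2.3.3, numpy 2.4.6 and matplotlib 3.10.9. Precision is limited by the number of arrays.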

Additional observations from a re-analysis of the deposited data

How the results depend on the processing

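With 1 array per group, no array could be left out. No paired analysis was possible because each group has 1 array. The count of members lower past the fold in KD1, 3 as reported, was 1 with normexp background correction and with quantile normalization, and 0 with spike-in scaling, with the unscaled series matrix and with a fold of 2. In KD2, 2 as reported, it was 1 with normexp correction and with the unscaled series matrix, and 0 with spike-in scaling and with a fold of 2. The count of members higher was 1 in KD1 and 0 in KD2 with a fold of 2, against 3 and 1 as reported. The median member change in KD1 was 0.512 with spike-in scaling and 0.287 with the unscaled series matrix, against -0.103 as reported. These settings moved the median of all genes in KD1 to 0.572 and 0.345. Spike-in scaling rests on 8 probes. Over 16 settings, the other 81 of these counts and medians stayed within 1.5 times the reported count or within 0.38 of the reported median. Of the single gene values, pooled with the change of RRM2 minus that of RRM1, 256 moved by less than 0.38 and 22 by more. Most settings cannot move the pooled difference of RRM2 and RRM1. No member past the fold changed sign. DCK has no value where detection on all arrays compared was required. DCK and SAMHD1 were read from dim spots, and their KD1 changes were 0.103 and -0.403 with normexp correction. RRM2 was also of low intensity (117.2 on NC), and its KD1 change was 0.713 with that correction, against 1.1 as reported.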
